A study of Mus musculus with 3 samples.

Results

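Mast cells of the injured mouse sciatic nerve were taken from 2 Drop-seq libraries as the cell barcodes with at least 200 detected genes in which the granule protease genes Cpa3, Mcpt4, Cma1 and Tpsb2 together made up at least 3% of the unique molecular identifiers (UMIs). The rule found 36 of 4111 kept barcodes in the beads library (0.876%, exact binomial 95% interval 0.614 to 1.21) and 21 of 1914 in the FACS library (1.10%, 0.680 to 1.67). These 57 mast cells stand among 6025 kept barcodes of injured nerve and 7180 barcodes in the whole series. The cells were thus chosen by the measured levels of these 4 genes, and every difference between mast cells and other barcodes is given below as a description, with no test.

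Drop-seq captures single cells in droplets and tags each transcript with a cell barcode and a UMI. Both injured libraries came from the distal nerve segment of adult mice 9 days after the nerve was resected, dissociated with collagenase and trypsin. The beads library is wild-type CD1 nerve cleared of myelin with removal beads, and the FACS library is CD1 and C57BL/6 nerve sorted by flow cytometry through a gate that is not given in the sources used here. A further library of uninjured CD1 nerve holds only the 880 cells that its authors called mesenchymal. Each group is 1 library, the number of mice is not given, and strain, sorting and library differ together between beads and FACS, so these cannot be told apart. The number of mast cells limits every value: intervals in brackets are 95% intervals that cover counting error only, and cells were not treated as replicates.

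Mast cells are tissue-resident granulocytes that mature locally under Kit signalling and store proteases, histamine and heparin-like proteoglycans in secretory granules. They release the granules when IgE bound to the high-affinity Fc receptor is cross-linked, or when peptides and drugs engage Mas-related G protein-coupled receptors. In peripheral nerve they lie in the endoneurium and the connective tissue sheaths, and they are known to degranulate after nerve injury.

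The proximal promoters of 8 mast cell genes are printed because GATA2, a transcription factor needed for mast cell identity, binds GATA motifs and its gene was high in these cells. Each line gives the 150 bases before the RefSeq gene start (GRCm38.p6), 5′ to 3′ on the gene's strand, and capitals mark AGATAA or TGATAA read on either strand, so that TTATCT and TTATCA count as well.
Cpa3, chr3:20242182-20242331, minus strand: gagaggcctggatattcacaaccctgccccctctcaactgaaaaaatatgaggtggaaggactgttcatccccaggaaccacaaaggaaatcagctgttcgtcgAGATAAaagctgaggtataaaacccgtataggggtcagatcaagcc
Mcpt4, chr14:56062311-56062460, minus strand: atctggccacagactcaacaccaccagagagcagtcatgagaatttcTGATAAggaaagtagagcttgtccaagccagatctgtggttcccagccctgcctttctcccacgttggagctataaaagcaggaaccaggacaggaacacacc
Mcpt1, chr14:56017814-56017963, plus strand: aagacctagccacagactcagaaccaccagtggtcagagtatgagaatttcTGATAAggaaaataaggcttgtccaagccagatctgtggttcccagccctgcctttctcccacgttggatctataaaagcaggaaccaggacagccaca
Cma1, chr14:55944676-55944825, minus strand: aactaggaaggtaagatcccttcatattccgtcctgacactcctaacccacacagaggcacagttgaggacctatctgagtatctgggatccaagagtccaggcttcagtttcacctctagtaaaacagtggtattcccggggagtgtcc
Fcer1a, chr1:173227230-173227379, minus strand: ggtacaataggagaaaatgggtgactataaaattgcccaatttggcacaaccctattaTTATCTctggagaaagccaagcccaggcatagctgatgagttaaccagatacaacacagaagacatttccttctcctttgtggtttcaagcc
Ms4a2, chr19:11623720-11623869, minus strand: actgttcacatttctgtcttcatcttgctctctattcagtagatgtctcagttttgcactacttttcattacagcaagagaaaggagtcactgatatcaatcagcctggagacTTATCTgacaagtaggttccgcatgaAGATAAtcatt
Mrgprb2, chr7:48558087-48558236, minus strand: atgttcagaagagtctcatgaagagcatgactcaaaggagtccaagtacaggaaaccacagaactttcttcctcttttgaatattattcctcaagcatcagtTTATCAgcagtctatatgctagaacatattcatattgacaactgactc
Hdc, chr2:126618679-126618828, minus strand: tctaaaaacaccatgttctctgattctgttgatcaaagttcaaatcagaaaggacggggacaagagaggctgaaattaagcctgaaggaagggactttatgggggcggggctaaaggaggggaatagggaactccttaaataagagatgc

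The match begins 46 bases before the start in Cpa3, 103 in Mcpt4, 99 in Mcpt1, 92 in Fcer1a and 48 in Mrgprb2, and Ms4a2 has a match at 37 and another at 11 bases. Of the 24 genes formed by the 4 rule genes and the 20 genes highest in mast cells, 19 have a promoter entry, and 10 of these hold either motif (52.6%). Over all 27025 genes with an entry, 3023 do (11.2%). Mcpt4 and Mcpt1, of the same chymase gene cluster, are alike beyond the motif, with 110 of 146 aligned bases identical (75.3%). The E-box letters CATGTG and CACGTG, which the mast cell factor MITF can bind, were found in 1 of the 19 (Slc6a4, 5.26%), against 12.6% of all genes. Cma1 and Hdc have no match to the GATA letters in this window. Among genes searched but not printed, Mrgprb1, Cyp11a1 and Tph1 have no match either, while Il1rl1 and Cd200r3 hold one. The printed genes were picked by no stated rule, so they give no share of genes with a match. A match describes the letters alone, and no binding was measured.

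The cells were set far apart by the rule. The lowest rule share was 3.91% in the beads library and 6.80% in the FACS library, with the next lowest at 11.1% and 10.9%. The median was 20.3% and 20.4%, and the highest was 29.0% in both. Outside the rule the highest barcode reached 0.759% in the beads library and 0.285% in the FACS library, so no kept barcode lay near the threshold from below.

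**Figure D1:**
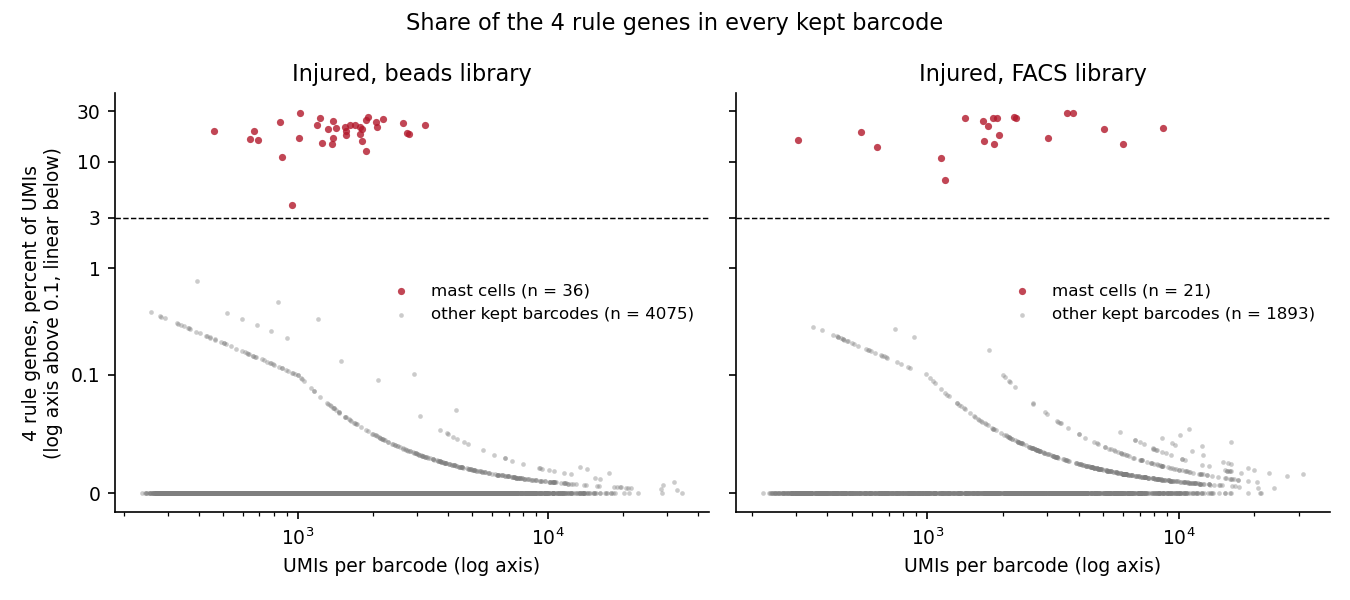
Share of UMIs from Cpa3, Mcpt4, Cma1 and Tpsb2 in each kept barcode (percent, log axis above 0.1 and linear below) against its total UMIs (log axis), by library, with the threshold of 3% as a dashed line. Mast cells sit between 3.91% and 29.0%, and no other kept barcode passes 0.759%.

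Mast cells were of ordinary depth in the beads library and shallower than their neighbours in the FACS library. They held a median of 1547.5 UMIs and 763.5 genes, against 1461 UMIs and 876 genes in the other kept barcodes of the beads library. FACS mast cells held 1841 UMIs and 887 genes, against 2569 UMIs and 1236 genes in the other barcodes. In all, the mast cells supplied 56128 UMIs in the beads library and 52306 in the FACS library, and the 3 largest barcodes gave 15.6% and 37.6% of these. Mitochondrial transcripts made up a median of 1.96% of mast cell UMIs against 1.69% in other barcodes of the beads library, and 0.817% against 0.987% in the FACS library. The injured tables share 1 barcode sequence and their mast cells none, no mast cell is among the 1289 cells the authors called mesenchymal, and doublets were not called.

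Levels below are in CPM, the UMIs of a gene in the summed pool of mast cells or of other kept barcodes, scaled to a pool total of 1e+06. A gene is called higher or lower where a pool has at least 100 CPM, the ratio is at least 2-fold and its interval leaves out equality. Where a pool has no UMI, the fold is taken against 3 counts over that pool and is a lower bound. By this rule 528 of 2686 genes past the floor were higher in mast cells of the beads library (19.7%) and 719 were lower (26.8%). In the FACS library 452 of 2358 genes were higher (19.2%) and 555 were lower (23.5%). The 4 rule genes take 20.2% of the mast cell UMIs in beads and 20.9% in FACS, which lowers all other CPM values in the same pool. With these genes left out of the totals, 758 of 3007 genes were higher (25.2%) and 495 lower (16.5%) in the beads library, and 690 of 2612 higher (26.4%) and 372 lower (14.2%) in the FACS library. The median log2 ratio over all genes past the floor was -0.28 in beads and -0.22 in FACS with the main totals, and 0.27 and 0.31 without the rule genes, so small differences near 2-fold depend on this choice. Across libraries 252 genes were higher in mast cells of both, which is 48.2% of the beads list and 55.9% of the FACS list, and 391 genes were lower in both.

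The chosen cells carried the wider mast cell programme. The defining markers, granule proteases and amine genes past the floor reach it only through the mast cell pool, as do many receptor and transcription factor genes, so the floor itself fixes much of their direction and the counts are a description. Each list count against other kept barcodes stands beside the shares over all genes past the floor. These were 19.7% higher and 26.8% lower in beads, and 19.2% and 23.5% in FACS. All 12 defining markers outside the rule were higher in both libraries. Kit, the receptor for stem cell factor, had 1461 CPM in mast cells and 9.23 CPM in other barcodes of the beads library, a log2 ratio of 7.31 [6.87, 7.74]. In the FACS library it had 1204 CPM in mast cells and 2.13 CPM in other barcodes (9.14 [8.32, 10.06]). The other barcodes thus held little Kit in either library.

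Per cell, detection followed depth. With each barcode thinned to 500 UMIs, Kit was seen in 18 of 35 beads mast cells (51.4%, 34.0 to 68.6) and in 7 of 3364 other barcodes (0.208%), with 1 beads mast cell too shallow to thin. Without thinning it was seen in 80.6% of mast cells and 1.69% of other barcodes. In FACS, 35% of thinned mast cells and 0.0620% of other barcodes had Kit, or 76.2% and 0.634% without thinning. The authors' mesenchymal cells, which should lack Kit, had it in 0 of 1135 thinned cells and in 4 of 1289 without thinning (0.310%). The thinned sets had median depths of 1551 UMIs in beads mast cells, 2020 in other beads barcodes and 3404 in mesenchymal cells, and 1864.5 and 3178 UMIs in FACS mast cells and other FACS barcodes.

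**Figure D2:**
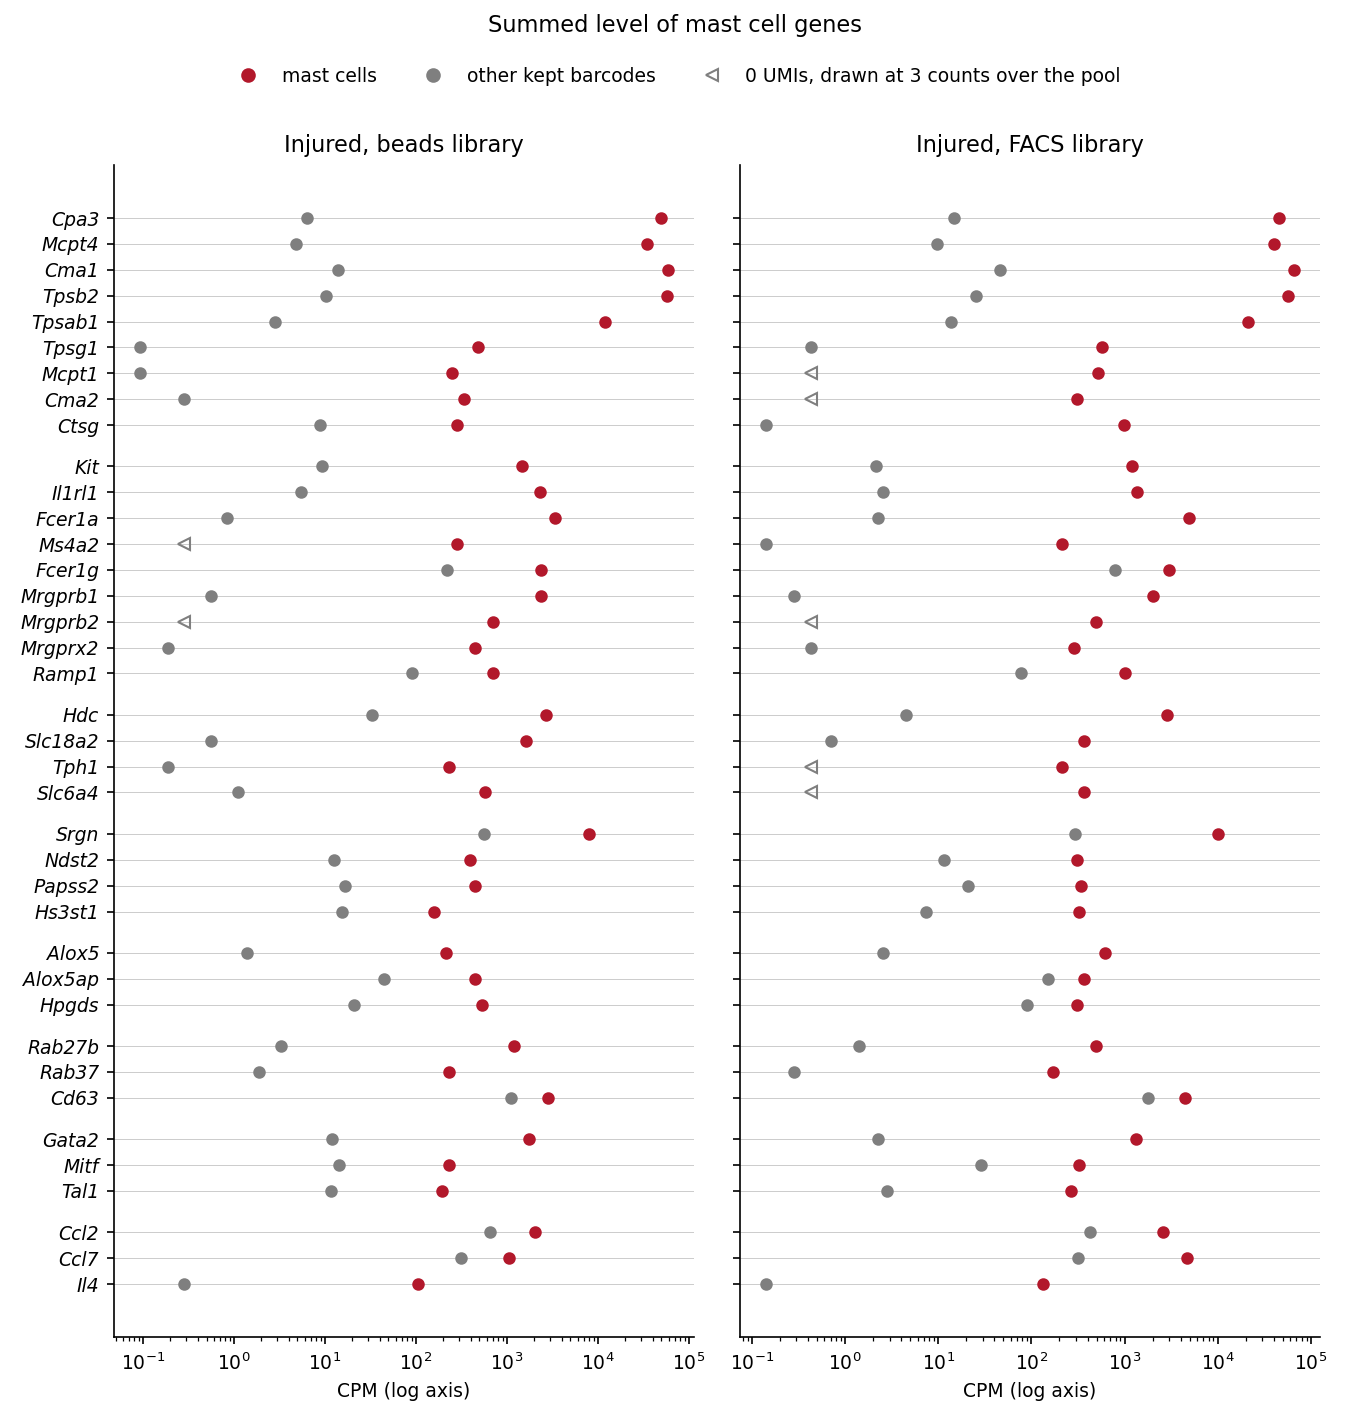
Summed levels of mast cell genes (CPM, log axis) in the pooled mast cells (red) and the pooled other kept barcodes (grey) of each injured library; a triangle marks a pool with no UMI, drawn at 3 counts. Mast cells lie above the other barcodes for every gene shown, for example Kit at 1461 against 9.23 CPM in beads and 1204 against 2.13 CPM in FACS.

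The granule proteases of mast cells are encoded mostly in 2 gene clusters. In mice, Mcpt4, Cma1, Tpsb2 and Cpa3 mark the connective tissue type of mast cell, while Mcpt1 and Mcpt2 mark the mucosal type. The chymase locus, taken here from Cma1 to Ctsg, spans 161 kb on chromosome 14 (chr14:55941451-56102574, GRCm38, GENCODE vM21). It holds 8 protein-coding genes, Cma1, Cma2, Mcpt1, Mcpt9, Mcpt2, Mcpt4, Mcpt8 and Ctsg. The tryptase locus, taken here from Prss34 to Tpsg1, lies on chromosome 17 (chr17:25298394-25374442) and holds Prss34, Prss28, Prss29, Tpsab1, Tpsb2 and Tpsg1. The channel gene Cacna1h overlaps the end of Tpsg1 and runs on to 25433783. Cpa3, a carboxypeptidase that trims peptides in the granule, lies apart at chr3:20215620-20242181.

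The 4 rule genes are described only, since they chose the cells. In the beads library Cpa3 had 49601 CPM in mast cells and 6.43 in other barcodes, Mcpt4, a chymase that cleaves fibronectin and other matrix substrates, 35116 and 4.85, Cma1, the alpha-chymase, 59115 and 13.9, and the tryptase Tpsb2 58384 and 10.3 CPM. The FACS values in mast cells and other barcodes were 45463 and 14.8 for Cpa3, 40473 and 9.65 for Mcpt4, 65652 and 45.5 for Cma1, and 57278 and 25.4 CPM for Tpsb2. Mast cells held 96.8% of all UMIs of these genes in the beads library and 94.2% in the FACS library. In the other barcodes 8.10% (beads) and 24.9% (FACS) had at least 1 rule gene UMI, so traces of granule transcripts lay widely outside mast cells. The proportions differed there: Cma1 gave 29.2% of rule gene UMIs in beads mast cells and 39.1% in other barcodes, and 31.4% and 47.8% in FACS. Cpa3 gave the smaller share outside mast cells, 24.5% inside and 18.1% outside in beads and 21.8% and 15.5% in FACS.

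The other granule proteases on the list number 12, of which 9 are in the beads table and 10 in the FACS table. Tpsab1, the other main tryptase of mouse mast cells, had 11937 CPM in mast cells and 2.80 CPM in other barcodes of the beads library, and 21030 and 13.6 CPM in the FACS library. Tpsg1, a membrane-anchored tryptase, had 481 and 0.0932 CPM in beads and 574 and 0.426 CPM in FACS. Its 3′ end overlaps that of Cacna1h on the other strand. Mcpt1, the mucosal chymase, was seen in 12 of 36 beads and 13 of 21 FACS mast cells, at 249 CPM against 0.0932 CPM in other barcodes of beads and 516 CPM against 0 in FACS (at least 1213-fold). Thus cells that carried the connective tissue proteases also had Mcpt1 transcripts in both libraries.

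Cathepsin G, encoded by Ctsg at the end of the chymase cluster, was patchy: 16 UMIs in 6 of 36 beads mast cells (285 CPM against 8.95 CPM in other barcodes) and 51 UMIs in 8 of 21 FACS mast cells (975 CPM against 0.142 CPM). Cma2 had 339 CPM in mast cells and 0.280 CPM in other barcodes of the beads library, and 306 CPM and 0 in the FACS library. Its count and that of Mcpt9 are uncertain, because 40.7% and 51.2% of the 50-base windows in the last 500 bases of their transcripts also occur in another gene. For Mcpt4 this share is 12.9%, with Cma2 and Mcpt9, and for Cma1 12.4%, while Cpa3, Tpsb2, Tpsab1, Tpsg1, Mcpt1 and Ctsg share none. The basophil protease Prss34 gave 7 UMIs in 2 beads mast cells and 26 UMIs in 1 FACS mast cell. The basophil chymase Mcpt8 gave 1 UMI in FACS mast cells, and for it and Mcpt2 the beads table has no value.

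**Figure D3:**
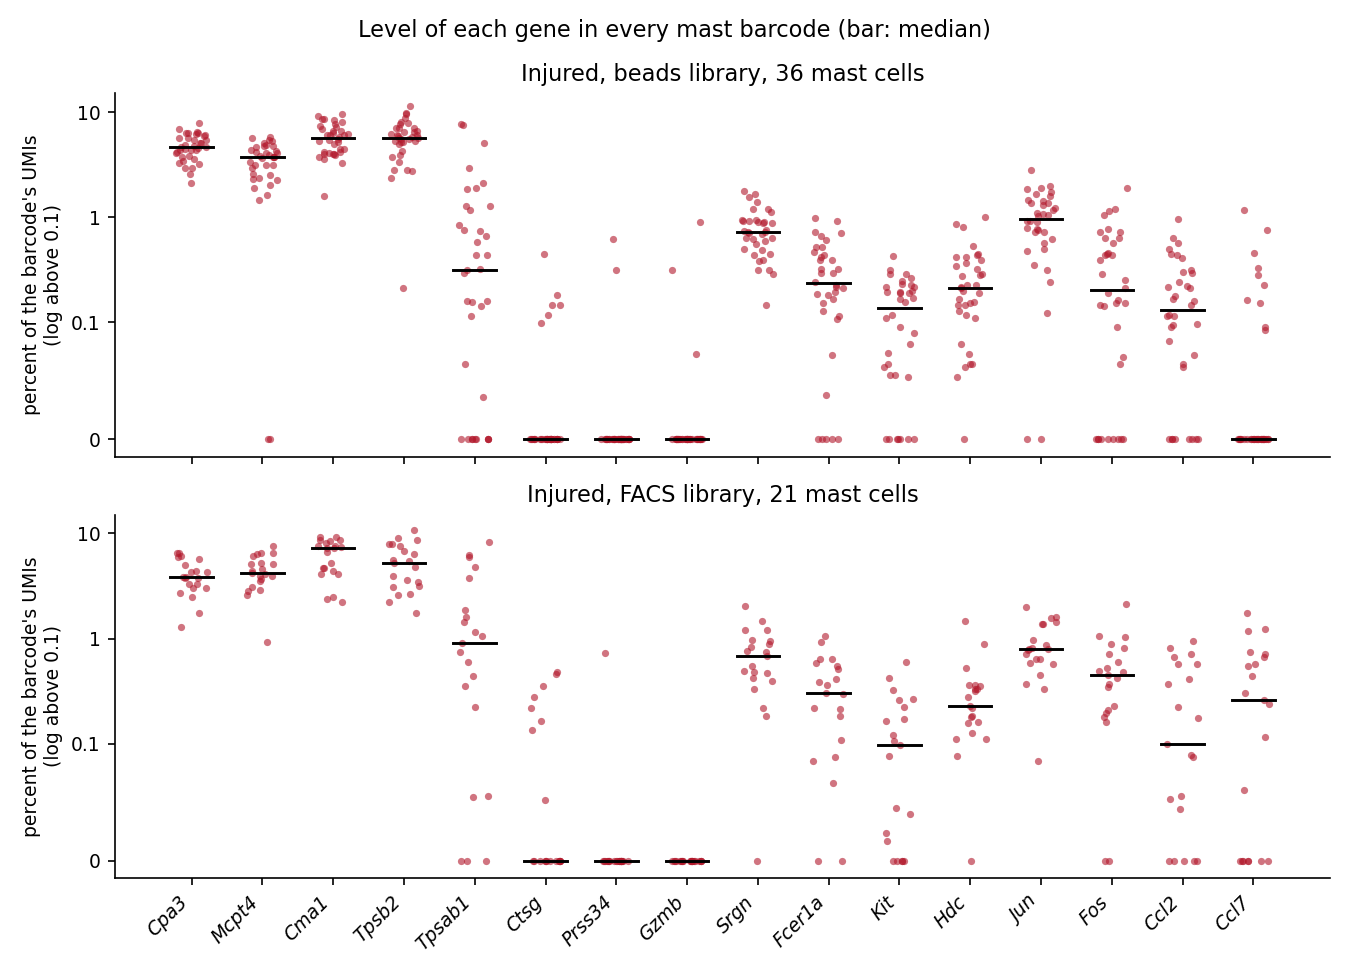
Level of 16 genes in every mast cell (percent of the barcode's UMIs, log axis above 0.1 and linear below), by library, with a bar at the median. The points of Tpsab1 run down to 0 in both libraries, while those of Cpa3, Cma1 and Tpsb2 do not reach 0.

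Protease transcripts were not evenly spread over mast cells, as Tpsab1 showed. Per cell it ranged from 0 to 162 UMIs in beads (median 4.5) and from 0 to 358 in FACS (median 13). No Tpsab1 UMI was found in 9 of 36 beads and 3 of 21 FACS mast cells, and the largest of these had 2786 and 3023 UMIs in total, where the pooled level would give 33.3 and 63.6. The 3 cells with most held 55.8% of Tpsab1 UMIs in beads and 66.5% in FACS. A dispersion index, the chi-square over its degrees of freedom against each cell's depth, is near 1 where a gene spreads as counting alone would. It was 50.7 for Tpsab1 in beads, the highest of 100 genes with at least 50 UMIs, and 69.4 in FACS, the second of 93. For an uneven gene the index grows with its level, so it does not rank genes of unlike level. The standard deviation of a gene's share over its mean, which rises at low counts, gave another order. For Tpsab1 it was 1.76 in beads, where Ier3 had 3.19, and 1.29 in FACS, where Apod had 3.35.

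The neighbouring tryptase Tpsb2 was spread more evenly. Its index was 12.1 in beads and 25.4 in FACS, against 9.16 and 16.2 for Cma1, 8.57 and 12.6 for Mcpt4, and 5.05 and 10.6 for Cpa3. As a share of the UMIs of both tryptases, Tpsab1 ranged from 0 to 49.5% in beads (median 5.38%, pool 17.0%) and from 0 to 70.4% in FACS (median 11.8%, pool 26.9%). It lay under 20% in 29 beads and 14 FACS cells, between 20 and 40% in 4 and 0, and at 40% or more in 3 and 7. These limits were chosen after the values were seen. As counted, no FACS cell thus lay between 20 and 40%, while 4 beads cells did. Some of the 7 FACS cells at 40% or more rest on few UMIs. Those with 305, 628 and 1177 UMIs in all held 19, 9 and 19 UMIs of Tpsab1 and 8, 11 and 26 of Tpsb2. No interval was placed on the ratio of a cell, and whether the cells form separate groups was not tested.

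Mcpt4 was missing from 2 beads mast cells that had UMIs of the other rule genes. The first had 947 UMIs in all and a rule share of 3.91%, the lowest of any, and the pooled level would give 33.3 Mcpt4 UMIs. It held 3 UMIs of Gzmb (granzyme B), 3 of Prss34 and 5 of cell division genes. The second had 1872 UMIs, a rule share of 12.6% and 17 Gzmb UMIs, where 65.7 Mcpt4 UMIs would be expected. Gzmb, a serine protease best known from cytotoxic lymphocytes and also made by some mast cells, gave 22 UMIs in only 3 beads mast cells and none in FACS mast cells.

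Genes for making and storing amines were high. Hdc, the enzyme that makes histamine, had 2672 CPM in mast cells and 32.7 CPM in other barcodes of the beads library, a log2 ratio of 6.35 [6.07, 6.63]. In the FACS library it had 2887 and 4.54 CPM (9.31 [8.76, 9.91]). Slc18a2, the vesicular transporter that loads histamine and serotonin into granules, had 1621 and 0.559 CPM in beads and 363 and 0.709 CPM in FACS.

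Genes for serotonin were among them. Tph1, the first enzyme of serotonin synthesis outside neurons, had 232 and 0.186 CPM in mast cells and other barcodes of beads, and 210 CPM and 0 in FACS, where 8 of its 11 UMIs lay in 1 cell. Slc6a4, the serotonin uptake transporter, had 570 and 1.12 CPM in beads and 363 CPM and 0 in FACS (at least 854-fold). Maob, an amine-degrading oxidase, had 178 and 8.76 CPM in beads and 229 and 7.80 CPM in FACS. Transcripts for synthesis, uptake, storage and breakdown of amines were thus all detected in these cells.

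The proteoglycan genes that hold amines and proteases in the granule were also high. Srgn, the serglycin core protein, had 7964 CPM in mast cells against 557 CPM in other barcodes of beads, and 10094 against 296 CPM in FACS, and was seen in every beads mast cell and 20 of 21 FACS mast cells. Ndst2, which sulfates heparin, had 392 against 12.7 CPM in beads and 306 against 11.5 CPM in FACS. Papss2, which makes the sulfate donor, had 445 against 16.7 CPM and 344 against 20.99 CPM.

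The high-affinity IgE receptor was represented by all of its chains. Fcer1a, the IgE-binding alpha chain, had 3385 CPM in mast cells and 0.839 CPM in other barcodes of the beads library, and 4856 and 2.27 CPM in the FACS library. Ms4a2, the signal-amplifying beta chain, had 285 CPM and 0 in beads (at least 1020-fold) and 210 and 0.142 CPM in FACS. Fcer1g, the gamma chain that other Fc receptors use as well, had 2387 and 222 CPM in beads (log2 3.43) and 2963 and 785 CPM in FACS (1.92). Mast cells held 190 of the Fcer1a UMIs in beads and other barcodes 9, while for Fcer1g the other barcodes held 2385 UMIs against 134 in mast cells.

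The list of 19 genes for Fc receptors and their signalling, the receptor chains included, had 10 higher and 0 lower members of 11 past the floor in beads, and 9 higher and 1 lower of 12 in FACS. Lat2, an adaptor of Fc receptor signalling, had 1497 CPM in mast cells and 33.3 CPM in other barcodes of beads, and 1357 and 77.9 CPM in FACS. The kinase genes Btk (214 against 17.8 CPM in beads, 172 against 18.7 CPM in FACS) and Prkcb (356 against 13.6 CPM and 287 against 18.9 CPM) were higher in both. Fcgr2b, the inhibitory IgG receptor, was the one lower member, with 38.2 CPM in FACS mast cells against 149 CPM in other FACS barcodes. Plcg2, a phospholipase of the same pathway, had no UMI in mast cells of either library, which allows up to 53.4 CPM in beads and 57.4 CPM in FACS.

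For the Mas-related family, receptors for peptides and basic drugs, the 114 kb stretch from Mrgprb1 to Mrgprb2 on chromosome 7 (chr7:48444113-48558086) was examined. It holds 3 protein-coding genes, and all 3 had UMIs in mast cells. The stretch was bounded by defining markers, which largely fixed this outcome, and other family members such as Mrgpra4 lie outside it. Mrgprb2, the mouse receptor for substance P and for drugs that cause mast cell release, had 713 CPM in beads mast cells and 497 CPM in FACS mast cells and no UMI in any other kept barcode, at least 2549-fold and 1168-fold. With barcodes thinned to 500 UMIs it was seen in 14 of 35 beads and 7 of 20 FACS mast cells, or 21 of 36 and 12 of 21 without thinning. Mrgprb1 had 2370 CPM against 0.559 CPM in beads and 2007 against 0.284 CPM in FACS. Mrgprx2 of the same stretch had 445 against 0.186 CPM in beads and 287 against 0.426 CPM in FACS. These 3 genes share no 50-base window at their 3′ ends with another gene. Mrgpra4, outside that stretch on the same chromosome, gave 7 UMIs in beads mast cells (125 against 0.0932 CPM). In FACS mast cells it gave 5 UMIs, under the floor. Its count is uncertain because 15.7% of its 3′ windows are shared with other genes.

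Of 13 receptors for nerve-derived peptides and neurotrophins, few were seen. Ramp1, a subunit of the receptor for calcitonin gene-related peptide, was higher in both libraries, with 713 CPM in mast cells and 91.1 CPM in other barcodes of beads (log2 2.97 [2.47, 3.42]) and 1013 and 77.6 CPM in FACS (3.71 [3.27, 4.12]). Its partner Calcrl gave 1 UMI in beads mast cells and 0 in FACS mast cells. Tacr1 (the neurokinin receptor for substance P), Vipr1, Vipr2, Adcyap1r1, Npy1r, Chrna7, Gabbr1 and Ednrb had no UMI in mast cells of either library, which at this depth allows 53.4 CPM in beads and 57.4 CPM in FACS. The list as a whole had 2 higher and 1 lower of 3 past the floor in beads and 1 higher of 2 in FACS.

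Other receptors were sparser. Adora3, the adenosine receptor that promotes mast cell release, had 428 CPM against 1.12 CPM in beads and has no value in the FACS table. The ATP-gated channels P2rx1 and P2rx4 were higher in both libraries, P2rx1 at 214 against 8.01 CPM in beads and 268 against 0.709 CPM in FACS. Adora2b, Hrh1, C3ar1, C5ar1, Ptger4, S1pr2, S1pr4, Cysltr1 and Cysltr2 had no UMI in mast cells of either library. Il1rl1, the receptor for the alarmin IL-33, had 2298 CPM in mast cells and 5.41 CPM in other barcodes of beads and 1357 and 2.55 CPM in FACS. Il2rg, the common gamma chain of cytokine receptors, was higher in both, and Il6st, the shared receptor subunit of the IL-6 family, was lower in both, with 89.1 against 533 CPM in beads and 38.2 against 280 CPM in FACS. Without the 10 FACS mast cells with at least 5 UMIs of another cell type's markers, which hold 71.2% of the FACS mast cell UMIs, the Il6st ratio in FACS was -0.49 and no longer passed. Over the 15 cytokine receptors, 5 of 8 over the floor were higher and 1 lower in beads, and 3 of 7 higher and 1 lower in FACS. Over all genes the shares were 19.7% higher and 26.8% lower in beads, and 19.2% and 23.5% in FACS.

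Among transcription factors, Gata2 stood at 1746 CPM in mast cells and 12.02 CPM in other barcodes of beads (log2 7.18 [6.79, 7.57]) and at 1338 and 2.27 CPM in FACS (9.20 [8.41, 10.09]). Mitf, the factor whose loss in mice depletes mast cells, had 232 against 14.2 CPM in beads and 325 against 28.7 CPM in FACS. Tal1, a blood cell factor that works with GATA proteins, had 196 against 11.6 CPM and 268 against 2.84 CPM. In all, 7 of 12 listed factors over the floor were higher and 0 lower in beads, and 8 of 11 higher and 1 (Cebpb) lower in FACS. For all genes over the floor, 19.7% were higher and 26.8% lower in beads, and 19.2% and 23.5% in FACS. Cebpb, which drives other myeloid fates, had 142 CPM in mast cells and 207 CPM in other barcodes of beads, which did not pass the rule, and 38.2 and 258 CPM in FACS, a call lost without the 10 FACS mast cells with at least 5 UMIs of another cell type's markers (log2 -1.96). Gata1 has no value in the beads table and gave 4 UMIs in FACS mast cells.

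Lipid mediator synthesis was represented by the same 3 genes in both libraries. Hpgds, which makes prostaglandin D2, had 534 CPM in mast cells and 21.1 CPM in other barcodes of beads, and 306 and 88.7 CPM in FACS. Alox5, the first enzyme of leukotriene synthesis, had 214 and 1.398 CPM in beads and 612 and 2.55 CPM in FACS. Its activating protein gene Alox5ap had 445 and 45.1 CPM in beads and 363 and 152 CPM in FACS, where without the largest mast cell its log2 ratio was 0.97 and did not pass. Ltc4s, the leukotriene C4 synthase, gave 3 UMIs in beads mast cells and 0 in FACS mast cells, and the inducible cyclooxygenase gene Ptgs2 gave 0 and 1.

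Chemokine and cytokine genes moved in both directions. Of those past the floor, 5 were higher and 3 lower of 9 in beads, and 6 higher and 5 lower of 11 in FACS. All genes past the floor gave 19.7% higher and 26.8% lower in beads, and 19.2% and 23.5% in FACS. Ccl2, which draws monocytes, had 2067 CPM in mast cells and 662 CPM in other barcodes of beads (log2 1.64 [1.37, 1.91]) and 2581 and 425 CPM in FACS (2.60 [2.34, 2.85]), and was seen in 28 of 36 and 16 of 21 mast cells. Ccl7, a neighbouring monocyte chemokine, had 1051 and 317 CPM in beads and 4703 and 318 CPM in FACS, in 10 of 36 and 14 of 21 mast cells. Il4, the type 2 cytokine, had 107 CPM against 0.280 CPM in beads and 134 against 0.142 CPM in FACS, from 6 and 7 UMIs. Il13 gave 1 UMI in beads mast cells and 8 UMIs in 3 FACS mast cells, and Il6 gave 1 UMI in each library. The macrophage chemokine genes Ccl3 and Ccl4 had no UMI in FACS mast cells, against 152 and 140 CPM in other FACS barcodes. In beads, Ccl4 had 142.5 CPM in mast cells, from 8 UMIs in 2 cells, against 91.4 CPM in other barcodes, which did not pass the rule, and Ccl3 gave 2 UMIs in mast cells (35.6 against 69.1 CPM).

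Genes of the secretion machinery were called in both directions. Rab27b, a small GTPase of secretory granules, had 1212 CPM in mast cells and 3.26 CPM in other barcodes of beads, and 497 and 1.42 CPM in FACS. Rab37, another granule GTPase, had 232 and 1.86 CPM in beads and 172 and 0.284 CPM in FACS, and the plasma membrane syntaxin Stx3 had 214 and 13.3 CPM and 153 and 14.04 CPM. The granule membrane gene Cd63 was higher by a smaller factor, with 2815 against 1119 CPM in beads and 4435 against 1798 CPM in FACS. Without the 10 FACS mast cells that held at least 5 UMIs of another cell type's markers, the log2 ratio of Cd63 in FACS was 0.73, under the rule. Lamp1 and Lamp2, general lysosomal membrane genes, were lower in both, Lamp1 with 249 against 557 CPM in beads and 535 against 1101 CPM in FACS. With totals that leave out the rule genes, neither Lamp gene passed 2-fold in either library. The list had 7 higher and 4 lower of 17 in beads and 5 higher and 5 lower of 15 in FACS.

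Adhesion genes were mixed as well, with 6 higher and 4 lower of 11 in beads and 2 higher and 4 lower of 9 in FACS. The higher and lower shares over all genes past the floor were 19.7% and 26.8% in beads and 19.2% and 23.5% in FACS. Cadm1, a homophilic adhesion molecule that mast cells use to contact neurons and fibroblasts, had 517 CPM in mast cells and 92.9 CPM in other barcodes of beads, and 478 and 42.4 CPM in FACS. Itga2b, an integrin better known from platelets, had 142 and 11.5 CPM in beads and 210 and 10.9 CPM in FACS. Itgb1, the common beta chain of matrix receptors, was lower in both, at 178 and 1084 CPM in beads and 249 and 757 CPM in FACS, where without the 10 cells with at least 5 UMIs of another cell type's markers its log2 ratio was -0.70 and did not pass. Cd9, a tetraspanin, was lower too, with 71.3 and 447 CPM and 19.1 and 533 CPM.

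**Figure D4:**
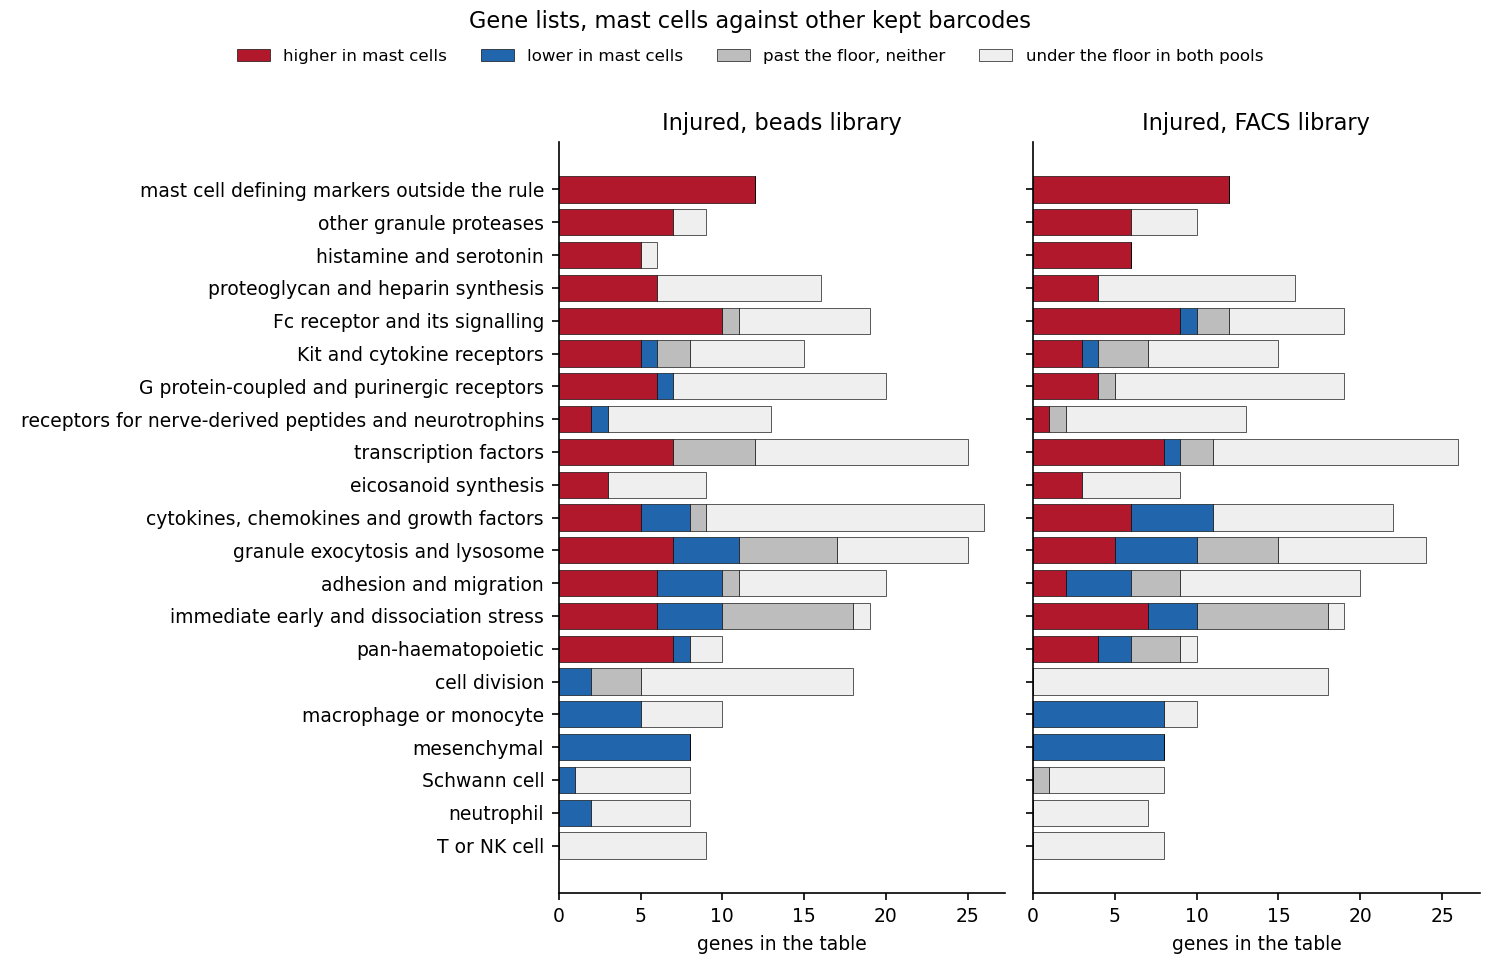
Stacked bars of the number of genes of each list in the table of each library that were higher in mast cells (red), lower (blue), past the floor and neither (grey) or under the floor in both pools (pale). The defining markers outside the rule reach 12 of 12 in both libraries, and the macrophage and mesenchymal lists have no higher member.

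Several of the 20 genes highest in mast cells lie outside the classic programme. Clec12b, an inhibitory lectin receptor gene, had 980 CPM in mast cells and 0.373 CPM in other barcodes of beads, and 841 and 0.284 CPM in FACS. Cyp11a1, the enzyme that starts steroid synthesis, had 624 and 0.186 CPM in beads and 593 and 0.567 CPM in FACS, in 17 of 36 and 14 of 21 mast cells. Krt4 (a keratin), Atp8b5 (a flippase) and Smpx (a muscle protein gene) stood at 134 to 421 CPM in mast cells and at most 0.993 CPM in other barcodes. Cd200r3, by contrast a defining marker and an activating receptor of mast cells and basophils, had 356 and 0.0932 CPM in beads and 574 and 0.426 CPM in FACS.

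The 8 lowest genes in mast cells were Marcks, Ctsl, Lsp1, Atf3, Cd74, Timp1, Ptn and Ctss. Each had 1 to 7 UMIs in the mast cells of a library. Marcks, an actin-binding protein kinase C substrate, had 17.8 CPM in mast cells and 1231 CPM in other barcodes of beads, and 38.2 and 1063 CPM in FACS. Cd74, the invariant chain of MHC class II, had 71.3 and 1555 CPM in beads and 134 and 3262 CPM in FACS. Atf3, an injury-induced transcription factor, had 17.8 and 524 CPM in beads and 19.1 and 426 CPM in FACS. The cathepsin genes Ctsl and Ctss were among these 8 while Ctsg, the cathepsin of granules, was higher.

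Immediate early genes, which respond within minutes to stimulation and to dissociation, were present in both pools. Jun had 10458 CPM in mast cells and 2482 CPM in other barcodes of beads (log2 2.07 [1.95, 2.19]) and 8775 and 2616 CPM in FACS (1.75 [1.61, 1.88]). Fosb, Jund and Dusp1 were also higher in both, Fosb with 3688 and 1269 CPM in beads and 2562 and 1138 CPM in FACS. Under the trimmed-mean scaling the log2 ratio was 0.94 for Fosb in FACS and 0.96 for Jund in beads, which did not pass. Fos did not pass the rule in either (4169 and 2766 CPM in beads, 5315 and 3016 CPM in FACS), while Atf3, Btg2 and Klf4 were lower in both. The list had 6 higher and 4 lower members of 18 in beads, and 7 higher and 3 lower of 18 in FACS. Among all genes past the floor, 19.7% were higher in beads and 19.2% in FACS. Lower were 26.8% and 23.5% of all genes, so lower members were no more frequent on this list. The heat shock gene Hspa1a had 1069 and 221 CPM in beads and 325 and 179 CPM in FACS, where it did not pass the rule; with totals that leave out the rule genes its ratio in FACS was 1.19 and that of Fos 1.16, and both passed. The part of dissociation in these levels was not tested.

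Of 18 cell division genes, 0 were higher in mast cells of either library. In beads, 2 of 5 past the floor (Mki67 and Top2a) were lower, and none was past the floor in FACS. Of all beads genes past the floor, 26.8% were lower. Mki67, the proliferation antigen gene, had no UMI in beads mast cells against 112 CPM in other beads barcodes, and 4 UMIs in 2 FACS mast cells.

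Markers of other cell types were low but present. The 8 mesenchymal markers summed to 1639 CPM in mast cells and 31589 CPM in other barcodes of beads, and to 2485 and 36141 CPM in FACS, with all 8 lower in both. Over all genes past the floor, 26.8% were lower in beads and 23.5% in FACS. In FACS, 44 of the 130 mesenchymal UMIs lay in 1 mast cell, the one with the lowest rule share. Macrophage markers summed to 143 and 3421 CPM in beads, where 9 of 10 markers including C1qa and Csf1r had no UMI in mast cells, and to 975 and 14061 CPM in FACS, where 3 of 10 had none. T or NK cell markers had no UMI, neutrophil markers 0 in beads and 1 in FACS, and eosinophil markers none. In all, 6 beads and 10 FACS mast cells had at least 5 UMIs of 1 such list. All 12 defining markers stayed past the rule without them. The floor fixes much of that outcome, so it does not show how much those cells matter.

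Against other blood cells, the mast cell genes divided into particular and shared ones. Macrophage-marked barcodes were those with C1qa, C1qb and C1qc at 0.5% or more of UMIs, 166 in beads and 481 in FACS. Against these barcodes mast cells of the beads library had 545 of 2383 genes higher (22.9%) and 438 lower (18.4%), and those of the FACS library 498 of 2127 higher (23.4%) and 391 lower (18.4%). Of the 252 genes higher than other barcodes in both libraries, 191 were also higher than macrophage-marked barcodes in both. Kit and Gata2 had no UMI in macrophage-marked barcodes of either library, which allows up to 8.87 CPM in beads and 2.13 CPM in FACS. Fcer1g did not pass the rule, with 2387 and 2410 CPM in mast cells and macrophage-marked barcodes of beads and 2963 and 2562 CPM in FACS, and neither did Hpgds, Alox5ap, Cd63 and P2rx4. The list of Fc receptors and their signalling had 8 higher and 4 lower of 16 past the floor in beads. In FACS it had 6 higher and 4 lower of 15, with Fcgr2b, Fcgr3 and Cd300a lower in both libraries. Ccl2 and Ccl7 were higher in mast cells than in macrophage-marked barcodes, Ccl7 at 1051 against 29.6 CPM in beads and 4703 against 215 CPM in FACS. The granule exocytosis and lysosome list had 4 higher and 8 lower of 17 past the floor in beads, and 3 higher and 8 lower of 15 in FACS. Its higher share was thus near that over all genes given above, while its lower share was above the 18.4% over all genes in each library.

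Neutrophil-marked barcodes, with S100a8 and S100a9 at 3% or more of UMIs, numbered 57 in beads. The 7 in FACS hold too few UMIs and no values are given for them. In beads, 488 of 2309 genes were higher in mast cells (21.1%) and 448 were lower (19.4%). Hdc had 2672 CPM in mast cells and 3241 CPM in neutrophil-marked barcodes, and Srgn had 7964 and 23100 CPM. Of these granule genes, Hdc did not pass the rule and Srgn was lower in mast cells. Slc18a2, Kit, Gata2 and Fcer1a had no UMI in neutrophil-marked barcodes, which allows up to 73.1 CPM. The transcript for histamine synthesis was thus found in both pools, while that for its vesicular transporter was detected in mast cells.

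The mast cells of the 2 libraries were also set against each other. Of 2213 genes past the floor, 137 were higher in beads mast cells (6.19%) and 166 were higher in FACS mast cells (7.5%). With equal weight per barcode, which has no counting interval, these numbers were 599 and 643 of 2443. Slc18a2 had 1621 CPM in beads mast cells and 363 CPM in FACS mast cells (log2 2.16), and Rab27b had 1212 and 497 CPM (1.29). Higher in FACS mast cells were Ccl7 (1051 CPM in beads, 4703 in FACS, log2 -2.16), Klf6 (321 and 1682 CPM, -2.39), Ctsg (285 and 975 CPM, -1.77) and Alox5 (214 and 612 CPM, -1.52). For Klf6, 35 of the 88 UMIs in FACS mast cells lay in 1 cell. The other barcodes of the 2 libraries did not move with them for Ccl7 (-0.01) or Klf6 (0.02), whereas the mitochondrial ribosomal RNA mt-Rnr2, higher in beads mast cells (log2 2.30), was also higher in other beads barcodes (1.14). With strain, sorting and library differing together, the sources of these differences cannot be told apart.

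**Figure D5:**
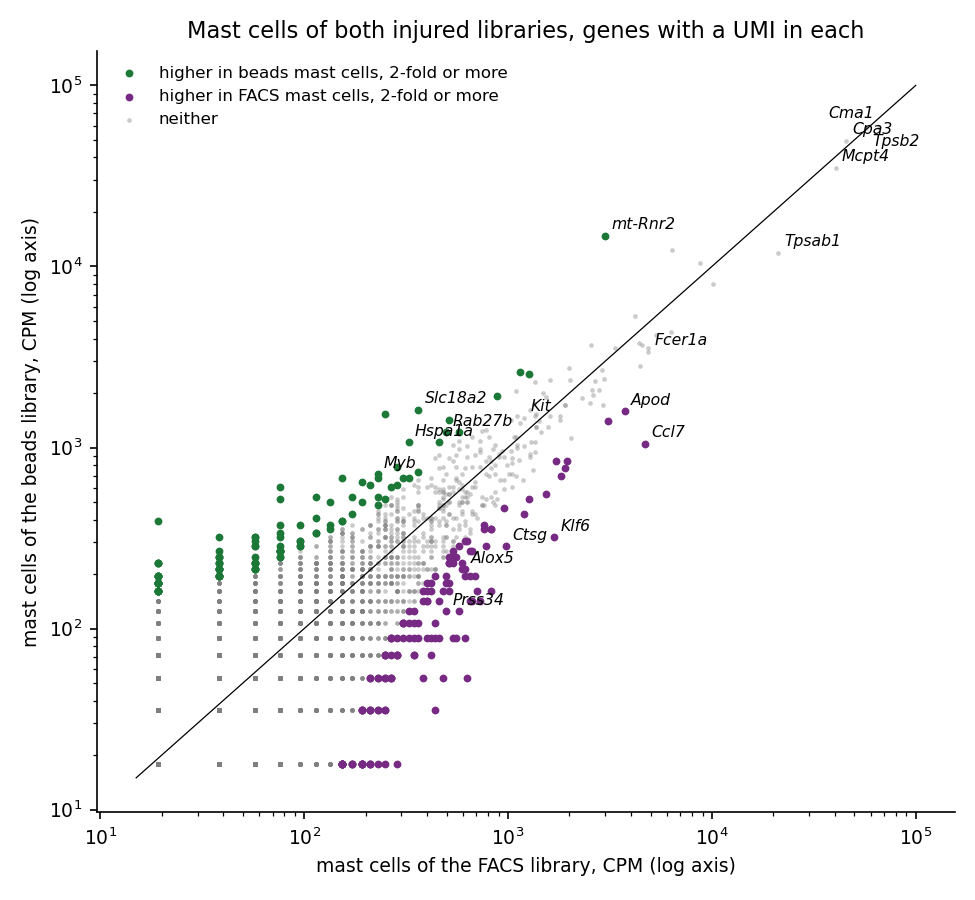
Level of each gene with a UMI in both pools, beads mast cells (vertical) against FACS mast cells (horizontal), in CPM on log axes, with genes past 2-fold coloured and the line of equal levels drawn. The 4 rule genes lie near the line, while Slc18a2 lies on the beads side (1621 against 363 CPM) and Ccl7 on the FACS side (1051 against 4703 CPM).

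Within each library, Ccl7 was also uneven among mast cells, with a dispersion index of 8.45 in beads and 9.44 in FACS. Fos had 7.84 and 7.16 and Jun 5.12 and 5.25. These genes differ in level, so their indices are not a ranking of unevenness. In FACS the highest index of all, 153.9, belonged to Apod, a gene of mesenchymal and perineurial cells, with 119 of its 195 UMIs in 1 mast cell. That cell is the FACS mast cell with the lowest rule share, which also held 44 UMIs of the mesenchymal markers. In beads mast cells Apod had an index of 1.54.

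Ligands for the mast cell receptors were found in the cells around them. Kitl, the ligand of Kit, had no UMI in mast cells of either library, 94.6 CPM in the injured cells the authors called mesenchymal, 236 CPM in the remaining beads barcodes and 175 CPM in uninjured mesenchymal cells. Il33, the ligand of Il1rl1, had 0 and 1 UMI in beads and FACS mast cells, 319 CPM in injured mesenchymal cells, 16.2 CPM in the remaining beads barcodes and 559 CPM in uninjured mesenchymal cells. In the FACS library the other kept barcodes had 52.9 CPM of Kitl and 203 CPM of Il33. Il33 was thus mostly in mesenchymal cells of the beads library, whereas Kitl was at a higher level outside them. Tslp, another alarmin, had 5.48 CPM in the mesenchymal cells of injured nerve and 8.76 CPM in those of uninjured nerve.

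The uninjured library offers no comparison for mast cells, since it holds mesenchymal cells only. None of its 880 cells passed the rule, and the highest rule share in it was 0.185%. The 4 rule genes had 67 UMIs in it (30.9 CPM), and 158 UMIs (33.3 CPM) in the injured cells the authors called mesenchymal.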

How the data were processed

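The authors deposited whole-number UMI counts per gene and barcode, with no normalization, as the values themselves show. Reads were processed with mm10, per the submitters' processing notes. Which aligner and counter were used is not given in the sources used here. Members and gene lists were chosen with earlier results of these data known.

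Barcodes with at least 200 genes were kept, and 3 older gene symbols per table were replaced. A gene missing from a table got no value there. Counts were summed over mast cells and over reference barcodes and scaled to CPM. Ratios carry an exact conditional binomial 95% interval, shares an exact binomial interval. A gene passed with 100 CPM in either pool, a 2-fold ratio and an interval without equality. With 1 library per group there is no test and no p-value. Detection was compared after thinning barcodes to 500 UMIs.

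Genes were named by a rule: the 4 rule genes, the 20 highest and 8 lowest log2 ratios shared by both libraries (higher genes with a UMI in at least 3 mast cells of each), and members of the mast cell lists with 5 or more UMIs or none. Genes named for contrast (Apod, mt-Rnr2, Add1, Krcc1 and markers of other cell types) were chosen after their values were seen. The alternatives tried were the rule share, the gene minimum, the floor, the totals, other scalings, other reference barcodes, equal weight per barcode and leaving out mast cells. Doublet calling was left out, and some genes are not reported here. The calculation was tested on simulated data. Promoters are from RefSeq (GRCm38.p6) and gene positions from GENCODE vM21. Python 3.11.15, numpy 2.4.6, scipy 1.17.1, pandas 2.3.3, matplotlib 3.10.9, R 4.3.3, edgeR 4.0.16 and DESeq2 1.42.0 (the last 2 for scaling only) were used.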

Additional observations from a re-analysis of the deposited data

Results flagged for a closer look

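Between the libraries, 3 genes had opposite directions against the other kept barcodes, and these differences were not tested. Add1, an adducin of the membrane skeleton, was lower in beads mast cells (log2 -2.77) and higher in FACS mast cells (1.19). These values rest on 1 UMI in beads and 10 UMIs in FACS mast cells. Klf6, an injury-responsive transcription factor, was lower in beads (-1.12) and higher in FACS (1.30), where 35 of its 88 UMIs lay in 1 mast cell. Without the mast cell with the most UMIs its FACS ratio was 0.82, and without the 10 FACS mast cells holding at least 5 UMIs of another cell type's markers it was 0.22, neither past the rule. Krcc1 was lower in beads (-2.001) and higher in FACS (1.69).

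The uninjured mesenchymal cells, which enter no comparison of mast cells, held 67 UMIs of the 4 rule genes. Each cell was far under the threshold.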

How the results depend on the processing

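No paired analysis was possible because each group is 1 library. The number of mast cells was 36 in beads and 21 in FACS at a rule share of 1%, 35 and 20 at 10%, 29 and 18 with at least 500 genes, and 36 and 23 with no gene minimum, within the counting interval of the share. With no floor, 880 genes were higher in beads and 810 in FACS. With a floor of 500 CPM, 98 genes were higher and 145 lower in beads, with 30 and 6 in the gene lists, and 82 higher and 137 lower in FACS, with 30 and 5 in the lists, since fewer genes were counted. Without the rule genes in the totals, 690 genes were higher in FACS and 13 list genes lower. Without mast cells holding 5 or more UMIs of another cell type's markers, 165 genes were lower in FACS and 6 of the lists. With equal weight per barcode, which has no counting interval, 687 genes were higher in FACS, and 599 were higher in beads mast cells and 643 in FACS mast cells between the libraries; the cause was not tested. Against macrophage-marked barcodes, 438 genes were lower in beads, and 33 list genes in beads and 39 in FACS. Kit was seen in 30.6% of beads mast cells thinned to 300 UMIs, and unthinned in 80.6% of beads and 76.2% of FACS mast cells. The trimmed-mean scaling shifted all log2 ratios by -0.16 in beads and -0.23 in FACS, and the DESeq2 size factors by -0.12 and -0.20.

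The direction turned against macrophage-marked barcodes in beads for Apod (0.35), Fcer1g (-0.013), Fcgr2b (-2.75), Il6st (1.11), Ptn (1.01) and Top2a (0.27). In FACS it turned for Alox5ap (-0.31), Apod (1.29), Hpgds (-0.21), Il33 (0.67) and Ptn (1.43). With equal weight per barcode it turned for Ccl4 in beads (-1.06). Klf6 in FACS fell to 0.22 without mast cells holding other markers and to 0.82 without the largest mast cell, and Tph1 no longer passed without that cell. At the depth of these pools a gene with no UMI may still lie at 53.4 CPM in beads and 57.4 CPM in FACS.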
